A study of Arabidopsis thaliana with 3 samples.

Results

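RCD1 and its relatives SRO1 to SRO5 (similar to RCD one) form a small plant family of 6 genes, each represented by 1 probe with 1 spot on the Agilent array used here, out of 25665 loci with a probe. The members were found by their locus names, AT1G32230 (RCD1), AT2G35510 (SRO1), AT1G23550 (SRO2), AT1G70440 (SRO3), AT3G47720 (SRO4) and AT5G62520 (SRO5). The family was chosen by the log2 ratio of SRO5 between the genotypes, which was among the highest measured. That ratio is therefore given as a description, with no p-value, and the same holds for its relatives, which were measured in the same contrast. Where a member is said to be called, this gives its place in the fit over all loci and is not a test of the member. The contrast set Arabidopsis seedlings with the transgene 35S:AtIBH1-SRDX against wild type, both in the Col-0 background and 10 days old. IBH1 is a helix-loop-helix protein that restrains cell elongation, SRDX is a short plant repression domain, and the 35S promoter is active in most cells of the plant. Both genotypes grew on MS agar (1% sucrose) at 23 °C, with daily light for 16 h and darkness for 8 h. RNA of the genotypes was co-hybridised on 3 2-colour arrays, 1 for each of 3 biological replicates, with IBH1-SRDX in Cy3 on replicates 1 and 3 and in Cy5 on replicate 2. The number of transgenic lines behind these plants is not stated in the sources used here. A seedling mixes organs, so fewer cells of a type and less RNA per cell cannot be told apart.

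Proteins of this family carry a domain related to the catalytic domain of poly(ADP-ribose) polymerases (PARPs) and, at the C terminus, an RST domain that binds transcription factors. RCD1 and SRO1 also have a WWE domain at the N terminus, which SRO2 to SRO5 lack. RCD1 is a nuclear protein, named after the radical-induced cell death of its mutant under ozone. It binds the stress factors DREB2A, ANAC013 and ANAC017, and it holds back the mitochondrial dysfunction response that the NAC factors drive. SRO5 is induced by salt, oxidative stress and low oxygen, and its transcript overlaps that of P5CDH, an enzyme of proline breakdown, on the opposite strand.

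The arrays shared 1 slide and 1 scan, no spot was saturated, and between 58.8% and 63.5% of the spots in a channel were well above background. In RNA labelled IBH1-SRDX the IBH1 probe was lower (log2 ratio -0.71 ± 0.09 SE) and the probe for SUP (SUPERMAN), the gene from which SRDX derives, was higher (8.12 ± 0.11). The position of the IBH1 probe is unknown here, so it does not check the labels, on which every direction rests. All 4 green tissue markers and all 4 root markers were well above background in both genotypes on all 3 arrays, as was 1 of 3 pollen markers and 0 of 4 seed markers. Of the green markers 2 were called lower and 2 not called, and of the root markers 2 were lower, 1 higher and 1 not called. The summed normalized signal of the 4 green markers ran from 144370 to 314117 units in IBH1-SRDX and from 196089 to 415400 in wild type. It lacked 2 values, and its ranges overlapped. The sum of the 4 root markers ran from 9220 to 12169 units in IBH1-SRDX and from 16846 to 18199 in wild type. That of the 4 seed markers ran from 432 to 1324 and from 265 to 377 units, with CRU1 at log2 ratios of 3.28, 0.88 and 1.32. Both were well above background in IBH1-SRDX on 3 arrays, but in wild type CRU1 was so on 0 and CRU3 on 1. Their highest ratios came from replicate 1. The part of these markers in the results below was not tested. Across the 19875 loci tested, 3687 were called higher and 3949 lower at an adjusted p below 0.05 in limma, or 38.4% in either direction. These counts were 2480 and 6369 with the deposited series table, whose median over all loci was -0.15 (log2), 1141 and 1918 with outlier local backgrounds kept, 591 and 674 with median centring, and 2320 and 2491 without replicate 1. Precision is limited by there being only 3 arrays.

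SRO5 was far higher in IBH1-SRDX on all 3 arrays, SRO2 stood higher by an amount that varied from array to array, and the long members RCD1 and SRO1 stood within 0.21 (log2) of equality. SRO3 and SRO4 were dim, near the background of the arrays. Unless a signal is named, values are log2 ratios with IBH1-SRDX as numerator. Of the 6 members, 5 passed the filter on dim probes and 3 of those (SRO2, SRO4 and SRO5) were called higher, beside 18.6% of all tested loci called in that direction. The family was chosen for SRO5 in this contrast, and SRO4 passed the filter only through IBH1-SRDX, where it was higher, so nothing is read from that count. With both genotypes required above background on every array, SRO4 was not tested and the count was 2. With no filter on dim probes, SRO3 was called higher too and the count was 4.

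**Figure D1:**
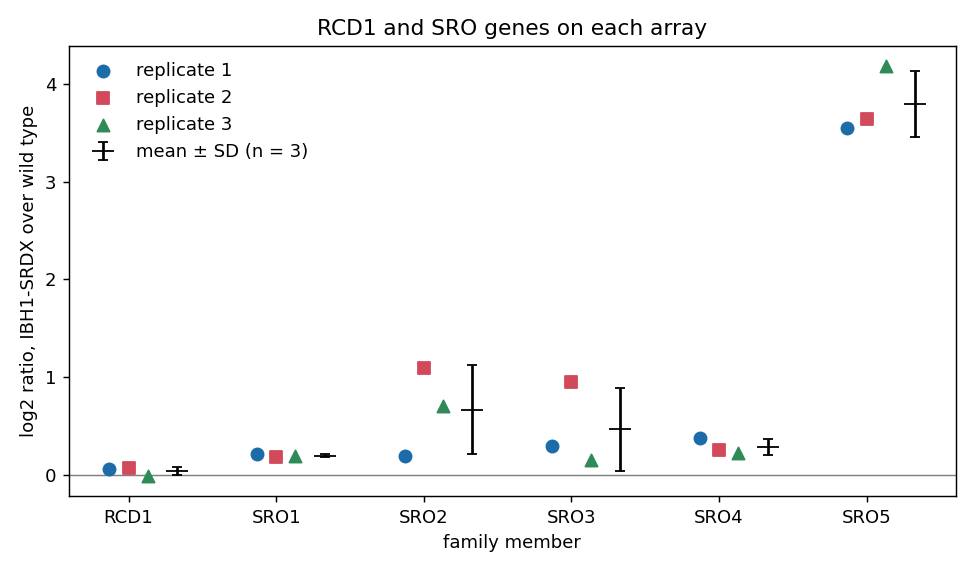
Log2 ratio, IBH1-SRDX to wild type (vertical axis), for each member on each of the 3 arrays, with the mean and SD of the arrays as a bar. SRO5 lies between 3.55 and 4.18, and every value of the other 5 members lies between -0.01 and 1.10.

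SRO5, a short member without the WWE domain, gave spot signals of 3179, 6501 and 5296 intensity units in the IBH1-SRDX channel on replicates 1, 2 and 3. In the wild-type channel the signals were 522.5, 254.5 and 528 units, over local backgrounds between 57 and 64 units in either channel. Every wild-type spot was thus clear of background, and the SRO5 ratio is not a ratio against a missing signal. After normalization the log2 signal was 12.08, 12.25 and 12.68 in IBH1-SRDX and 8.52, 8.60 and 8.50 in wild type. The lowest IBH1-SRDX value lay far above the highest wild-type value, and the wild-type values lay closer together (SD 0.05) than those of IBH1-SRDX (SD 0.31). The log2 ratios were 3.55, 3.65 and 4.18, with a mean of 3.79 ± 0.34 (SD, n = 3), or 13.9-fold. The SE from the fit over all loci, which draws each gene's variance toward the pooled one, was 0.13. By its mean SRO5 ranked 10 from the top among the 19875 tested loci, and by its lowest array 8. With Feature Extraction's own log ratio the arrays gave 3.97, 3.92 and 4.43, and replicate 3 was again the highest.

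**Figure D2:**
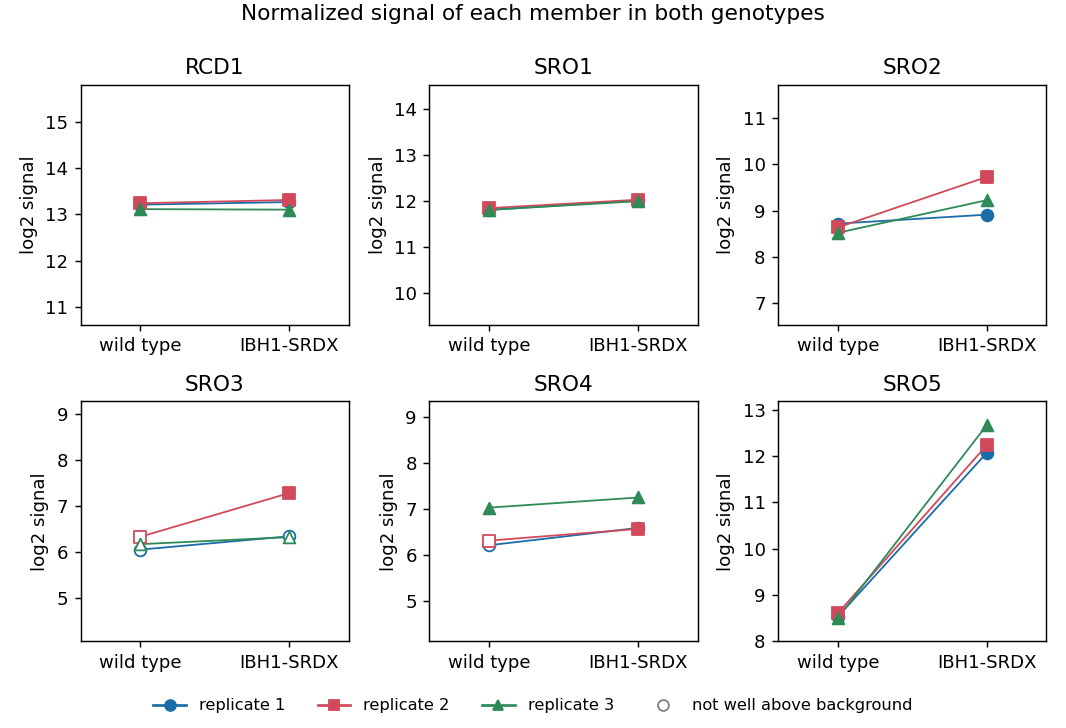
Normalized log2 signal of each member in wild type and IBH1-SRDX, joined for each array, on axes of equal span, with open symbols for spots not well above background. Levels of different members come from different probes and are not compared. The SRO5 lines run from about 8.5 to over 12, while those of RCD1 and SRO1 are close to flat.

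RCD1, the founding member, was bright in both genotypes, with normalized log2 signals of 13.27, 13.31 and 13.10 in IBH1-SRDX and 13.21, 13.24 and 13.11 in wild type. These ranges overlapped. Its log2 ratios were 0.06, 0.07 and -0.01 (mean 0.04 ± 0.04 SD, n = 3), and 55.2% of the tested loci had a lower mean ratio. RCD1 was not called under any of the 13 other settings of the preparation and fit, where its mean ran from -0.13 to 0.06. The lowest means, -0.13 and -0.10, came from the deposited series table and median centring. The medians over all loci in those settings were -0.15 and -0.10.

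SRO1, the closest relative of RCD1, with which it is partly redundant in development, gave log2 signals with a mean of 12.02 ± 0.02 (SD, n = 3) in IBH1-SRDX, the highest being 12.03, against 11.81, 11.85 and 11.81 in wild type. The groups did not overlap. The log2 ratios of 0.21, 0.18 and 0.19 were the tightest of the family (mean 0.19 ± 0.01 SD, n = 3). SRO1 was not called in the fit over all loci, nor under any of the other 13 settings. Its mean was 0.02 with the deposited series table and 0.08 with median centring, and in both the median over all loci lay lower.

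SRO2, one of the short members, had log2 signals of 8.91, 9.73 and 9.23 in IBH1-SRDX and of 8.72, 8.63 and 8.52 in wild type. The groups did not overlap, but the distance between them was small on replicate 1. The log2 ratios were 0.19, 1.10 and 0.71, with a mean of 0.67 ± 0.45 (SD, n = 3) beside an SE from the fit of 0.16. The highest ratio came from replicate 2, the array with the dyes swapped, so the array and the dye cannot be told apart there. Without replicate 2 the mean was 0.45, without replicate 1 it was 0.90, and with a dye term 0.77. SRO2 was called higher under 11 of the 13 other settings, the exceptions being median centring and outlier backgrounds kept. SRO1, SRO2 and SRO5 were thus the 3 tested members whose signals did not overlap between the genotypes, with IBH1-SRDX higher, beside 26.4% of all tested loci. No member lay wholly lower in IBH1-SRDX, beside 26.9% of all tested loci. The family was chosen for SRO5 in this contrast, so nothing is read from these counts.

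SRO4 was well above background in IBH1-SRDX on all 3 arrays but in wild type on replicate 3 alone. Its spots read 91, 102 and 145 units in IBH1-SRDX and 74.5, 82 and 151 units in wild type, over local backgrounds of 51 to 58 units. The log2 signals were 6.58, 6.56 and 7.24 against 6.21, 6.31 and 7.02, and the groups overlapped. The log2 ratios were 0.38, 0.25 and 0.22 (mean 0.28 ± 0.08 SD, n = 3). Feature Extraction's log ratio, which adds no offset to dim signals, gave 2.98, 1.46 and 0.62, a mean of 1.69. The mean was 0.46 with an offset of 16 and 0.29 with no background correction. The size of the SRO4 difference thus varied with the preparation, and which step sets it was not tested. SRO4 was not called under 4 of the 12 other settings that tested it, namely without replicate 1, without replicate 3, with median centring and with outlier backgrounds kept.

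SRO3 was the dimmest member and did not pass the filter, since its spot was well above background on 1 of 3 arrays in IBH1-SRDX and on 0 of 3 in wild type. The spots read 80.5, 177 and 87 units in IBH1-SRDX and 71, 81.5 and 75.5 units in wild type. Replicate 2, in which IBH1-SRDX carried Cy5, was the one array with a clear signal. The log2 ratios of 0.29, 0.95 and 0.15 had a mean of 0.46 ± 0.43 (SD, n = 3), and the normalized signals overlapped. With Feature Extraction's log ratio its mean was 2.19.

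**Figure D3:**
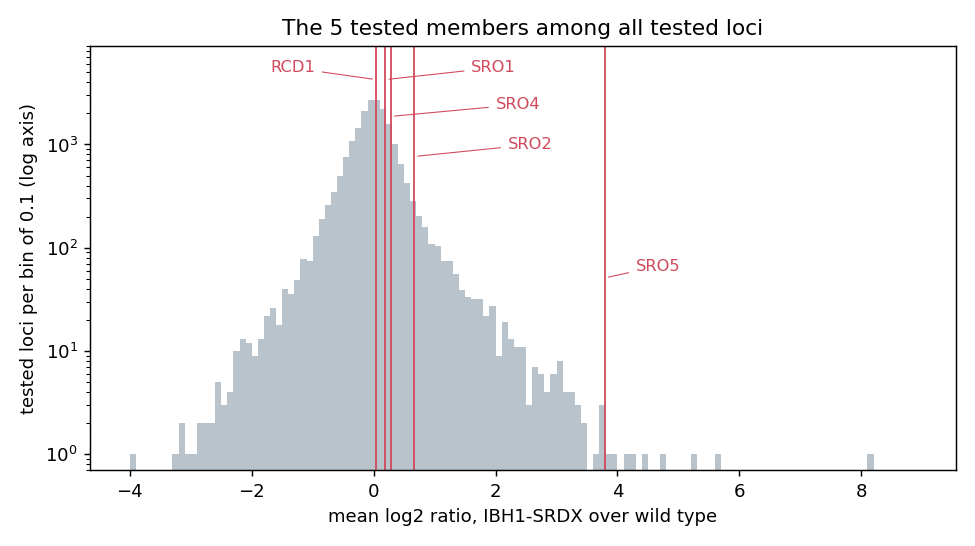
Histogram of the mean log2 ratio of all 19875 tested loci (log axis of counts), with the 5 tested members as vertical lines. RCD1 at 0.04 lies in the middle, SRO1, SRO4 and SRO2 lie between 0.19 and 0.67, and SRO5 at 3.79 lies in the upper tail.

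Transcripts that stood closest to SRO5 on the 3 arrays were sought by the Euclidean distance between log2 ratios, as a description over 3 arrays. BPS3 was nearest, at a distance of 0.24, with ratios of 3.74, 3.76 and 4.28. AT2G17850 followed at 0.67 (3.26, 3.12 and 3.89), AT1G12805 at 0.77, AT5G65207 at 0.81 and CML38, a calmodulin-like gene, at 1.01. All 5 were highest on replicate 3, as SRO5 was. Since they were picked by these same ratios, the choice favours that shared peak, and nothing is read from it. All 5 were well above background in both genotypes on every array.

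SRO5 belongs to the transcripts that rise in Arabidopsis under low oxygen, and other genes of that response were higher too. All 16 genes of a list of core low-oxygen genes were called higher, beside 18.6% of all loci, with a median of 2.56 beside 0.00 for all loci and a range of 0.90 to 5.62. AT3G29970 stood at 5.62 ± 0.13 and AT5G10040 at 5.20 ± 0.12. Earlier results of ADH1, AT3G29970 and AT5G10040 in these data were known when the list was chosen. No p-value is therefore given for them, and the count of 16 is a description. PDC1, the pyruvate decarboxylase gene of ethanol fermentation, stood at 3.70 ± 0.10 over the 2 arrays that measured it, at 3.65 and 3.75. SUS4, a sucrose synthase gene, gave 3.12, 2.12 and 4.58 (mean 3.27 ± 0.39, adjusted p = 0.00106), so its arrays differed widely. The list's median was 2.21, 2.45 and 2.99 on replicates 1, 2 and 3, and both it and SRO5 were highest on replicate 3. Of the 16 genes, AT3G29970 and AT5G10040 had a higher mean log2 ratio than SRO5.

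Genes of the mitochondrial dysfunction response, which RCD1 holds back through ANAC013 and ANAC017, were mostly higher. Of 17 listed genes, 15 were called higher, 0 lower and 2 not called, beside 18.6% of all loci called higher and 19.9% lower. ANAC013 is among the 15 and is counted again below with the proteins that bind RCD1. The median was 1.20 beside 0.00 for all loci. Called and at least 2-fold higher were 10 genes of the list, beside 614 of the 19875 tested loci. UGT74E2, an auxin glucosyltransferase gene, stood at 4.13 ± 0.16, a result known when the list was chosen and so given without a p-value. For the same reason the count of 15 is a description. CYP81D8, a cytochrome P450 gene, stood at 2.91 ± 0.16 (adjusted p = 6.40e-05) and SOT12, a sulfotransferase gene, at 2.25 ± 0.15 (adjusted p = 0.000113). OM66, an ATPase gene of the outer mitochondrial membrane, stood at 1.99 ± 0.12. AOX1A, the alternative oxidase gene that is the usual marker of this response, gave 1.19, 1.79 and 0.79 on the arrays, a mean of 1.26 ± 0.17 (adjusted p = 0.00187). The list's median was 0.76, 1.56 and 1.06 on replicates 1, 2 and 3, highest on the dye-swapped array, as SRO2 was. The count of higher genes was 10 with median centring, 10 with outlier backgrounds kept and 17 without replicate 3.

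Genes for proteins that bind RCD1 were a mixed group, while RCD1 itself stood near 0. Of 17, 6 were called higher, beside 18.6% of all loci, and 1 lower, beside 19.9%. The other 10 were not called, and the median was 0.16. ANAC013 gave 1.19, 1.07 and 1.11 (mean 1.12 ± 0.08, adjusted p = 0.000129), with little spread between arrays. DREB2C, of the family of DREB2A, stood at 1.30 ± 0.12 (adjusted p = 0.000424) and ANAC016 at 0.90 ± 0.14 (adjusted p = 0.00308). RAP2.4A stood at 0.38 ± 0.09 and ANAC017 at 0.34 ± 0.08 (adjusted p = 0.0178 and 0.0143), and their calls ended without replicate 3 and without replicate 1, respectively. DREB2A, the best known partner, gave -0.17, 0.11 and -0.21 and was not called (mean -0.09 ± 0.09, adjusted p = 0.468). BBX24, a B-box factor also called STO, was not called at -0.12 ± 0.12, nor was the sodium antiporter gene SOS1 at 0.17 ± 0.08. The 1 lower gene was GLK2, a factor of chloroplast development, at -0.30 ± 0.09 (adjusted p = 0.0334), named after its value was seen, and without replicate 1 or replicate 3 the count of lower genes was 0. The count of higher genes was 2 with median centring, 2 with outlier backgrounds kept and 3 with the deposited series table.

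**Figure D4:**
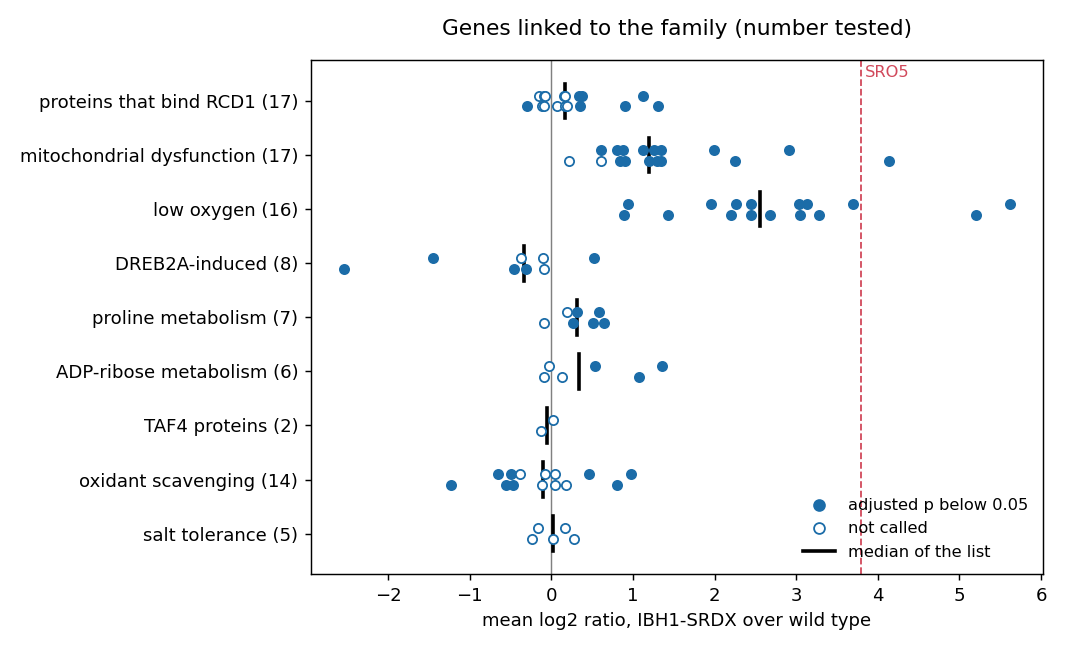
Mean log2 ratio of each tested gene in 9 lists linked to the family, filled where the adjusted p was below 0.05, with the median of each list as a black bar and the mean of SRO5 as a dashed line. All 16 low-oxygen genes and 15 of 17 mitochondrial dysfunction genes are filled and lie right of 0, while the lists for salt tolerance and TAF4 proteins hold open symbols only.

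P5CDH (ALDH12A1 in the reference table), whose gene overlaps that of SRO5 in the TAIR10.1 annotation of RefSeq, was read beside SRO5. Its log2 ratios were 0.20, 0.37 and 0.22, a mean of 0.26 ± 0.08 (adjusted p = 0.039), against 3.55, 3.65 and 4.18 for SRO5. The call of P5CDH ended when any 1 of the 3 replicates was left out (means of 0.21 to 0.30), and also with median centring, outlier backgrounds kept and the deposited series table. Neither the position nor the strand of these probes within the overlap was known here. Of 7 genes of proline synthesis and breakdown, 5 were called higher, 0 lower and 2 not called, with a median of 0.31. Over all tested loci, 18.6% were called higher and 19.9% lower. P5CS2, a synthesis gene, stood at 0.64 ± 0.10 (adjusted p = 0.00336) and OAT, for the ornithine aminotransferase, at 0.58 ± 0.10 (adjusted p = 0.00419). PRODH1, for the proline dehydrogenase that precedes P5CDH, stood at 0.52 ± 0.13, and P5CR, for the last enzyme of synthesis, at 0.31 ± 0.09 (adjusted p = 0.0171 and 0.0273). The call of P5CR ended without replicate 1 and without replicate 3. The count of higher genes in this list was 3 without replicate 1, 3 with the deposited series table, 1 with outlier backgrounds kept and 0 with median centring.

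Genes induced by DREB2A in drought and heat were called lower in 4 of 8 cases and higher in 1, with a median of -0.34. Of all tested loci, 19.9% were called lower and 18.6% higher. The cold-regulated COR15A stood at -2.54 ± 0.09, a result known when the list was chosen and so given without a p-value. COR47 stood at -1.45 ± 0.12 (adjusted p = 0.000231) and ERD10 at -0.46 ± 0.08 (adjusted p = 0.00501). These 3 genes are also known to respond to the CBF factors of cold. RD29B, a desiccation-responsive gene, was the 1 higher gene at 0.52 ± 0.12 (adjusted p = 0.0156), a call that ended without replicate 1. HSFA3, a heat shock factor gene that DREB2A activates directly, was not called at -0.09 ± 0.11 (-0.37, 0.06 and 0.04 on the arrays).

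Among genes of ADP-ribose metabolism, 3 of 6 tested were called higher and 0 lower, beside 18.6% and 19.9% of all loci, with a median of 0.34. The 3 higher genes were NUDX6 at 1.36 ± 0.21 (adjusted p = 0.00298) and NUDX7 at 0.54 ± 0.10 (adjusted p = 0.00595), both for Nudix hydrolases, and PARG2, for a poly(ADP-ribose) glycohydrolase, at 1.08 ± 0.12 (adjusted p = 0.000897). The polymerase genes PARP1 and PARP2, whose catalytic domain resembles that of the family, were not called at -0.09 ± 0.09 and 0.14 ± 0.11, both named after their values were seen, and PARP3 did not pass the filter on dim probes. The TAF4 proteins of the general transcription machinery carry the RST domain as well. Neither of their 2 genes was called, with AT5G43130 (TAF4 in the reference table) at 0.02 ± 0.09 and AT1G27720 (TAF4B there) at -0.12 ± 0.12. Without replicate 2, AT1G27720 was called lower, at -0.29 (adjusted p = 0.0303).

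Enzymes that remove superoxide and hydrogen peroxide, to which the ozone and paraquat responses of rcd1 mutants relate, showed no common direction. Of 14 tested, 3 were called higher, 5 lower and 6 not called, with a median of -0.10, beside 18.6% of all loci higher and 19.9% lower. CSD2, a chloroplast copper/zinc superoxide dismutase gene, gave -0.92, -1.95 and -0.83 (mean -1.23 ± 0.21, adjusted p = 0.00423), and TAPX, for the thylakoid ascorbate peroxidase, stood at -0.66 ± 0.10 (adjusted p = 0.00294). FSD1, an iron superoxide dismutase gene, was higher at 0.80 ± 0.10 (adjusted p = 0.00149). CAT3, a catalase gene, stood at 0.98 ± 0.10 over 2 arrays by its brighter probe, but its other probe had a mean of 0.04. Without replicate 1 or replicate 3 the brighter probe had 1 array left, so CAT3 was then read from the other probe. That probe gave 0.02 and 0.10, respectively, with no call, so CAT3 is uncertain. In the salt tolerance list, where SRO5 and SOS1 are both known, 0 of 5 genes were called in limma, with a range of -0.24 to 0.27 and 1 gene at an unadjusted p below 0.05. Without replicate 2, 1 was called higher and 1 lower.

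**Figure D5:**
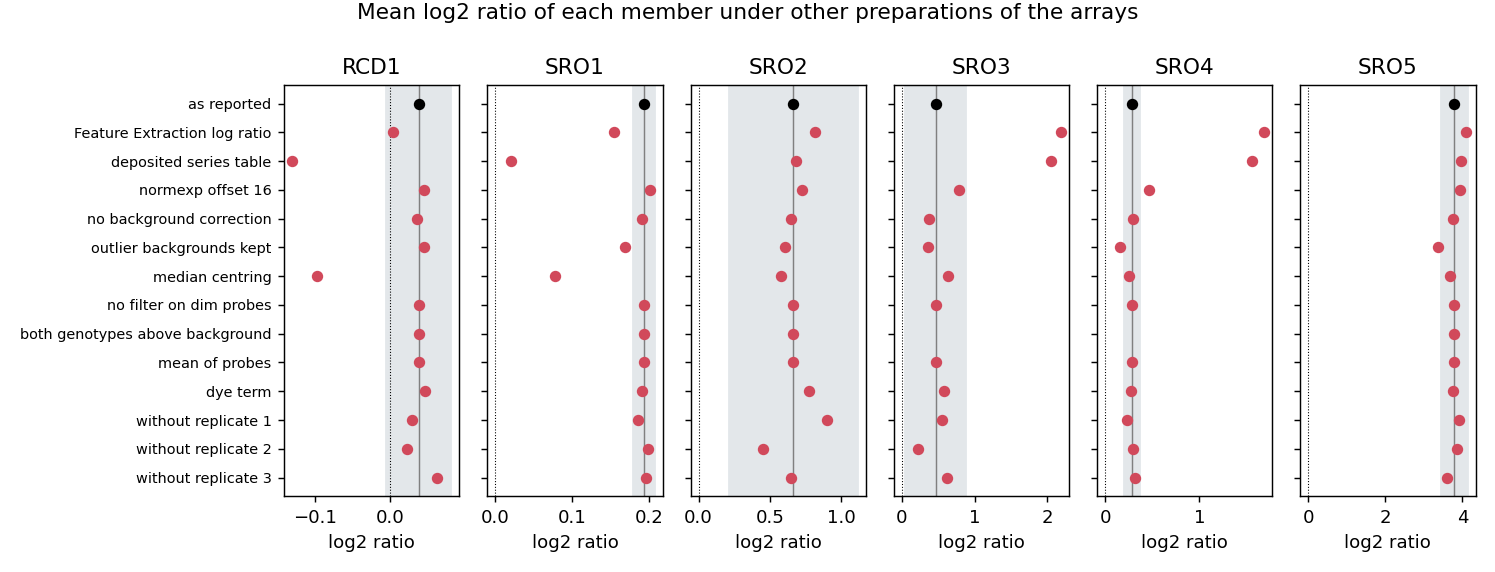
Mean log2 ratio of each member (horizontal axis, a scale of its own in each panel) as reported and under 13 other settings of the preparation and fit, with the reported mean ± SD of the arrays as a grey band and 0 as a dotted line. SRO5 stays between 3.37 and 4.11, RCD1 between -0.13 and 0.06, and the dim SRO3 and SRO4 reach 2.19 and 1.69 with Feature Extraction's log ratio.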

How the data were processed

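Per the file headers, the scanner files give, for each spot, median intensity of signal and of local background, flags of 0 or 1, and a log10 ratio (Cy5 to Cy3) with background removed and dyes normalized. Agilent Feature Extraction 9.1.3.1 wrote them, per the submitters' processing notes. Values of the deposited series table are natural log ratios of IBH1-SRDX to wild type (slope 1.00 and intercept -0.0929 against the scanner ratios, column medians 0.0019, -0.225 and 0.0046). The origin of the intercept is unknown.

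Local backgrounds marked as outliers took the median of the unmarked ones of their array and channel, a choice first made after seeing these data. Background was corrected with normexp (offset 50), and ratios were normalized by loess with control spots at weight 0. Marked outlier spots (91 to 189 per array) were left out. A probe was kept if either genotype exceeded background clearly on every array, and each locus was read from its brightest probe. Ratios, turned to IBH1-SRDX over wild type, were tested for a mean of 0 in limma 3.58.1 (lmFit, eBayes; R 4.3.3, with data.table at version 1.17.8 for reading), and p-values were adjusted by Benjamini-Hochberg across 19875 loci. Residual degrees of freedom were 2 and prior ones 4.88. Values after ± are limma SEs unless marked SD. Signals per channel are after loess and Aquantile. Members and lists were chosen with earlier results of these data known, those of UGT74E2, ADH1, AT3G29970, AT5G10040 and COR15A among them. In each list the 4 called genes with the largest absolute mean are named, with some fixed by name, and the 5 loci nearest to SRO5. Symbols came from the TAIR10.1 annotation of RefSeq (19769 of 19875 loci matched) or the usual gene name. No coordinates are printed, as no source used here names the array's build. Sequences of probes, promoters and proteins were not used here, so shared signal between members was not checked. The fit was tested on simulated data.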

Additional observations from a re-analysis of the deposited data

How the results depend on the processing

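The mean of SRO5 ran from 3.37, with outlier backgrounds kept, to 4.11 under the other 13 settings. SRO5 was chosen for its rise on these same arrays, so this range describes the preparation and is no support for the rise. The deposited series table gave -0.13 for RCD1, 0.0198 for SRO1, 2.06 for SRO3 and 1.55 for SRO4, and Feature Extraction's log ratio 0.15, 2.19 and 1.69 for SRO1, SRO3 and SRO4. An offset of 16 gave 0.46 for SRO4, outlier backgrounds kept 0.17 for SRO1 and 0.16 for SRO4, and median centring -0.10 for RCD1 and 0.0774 for SRO1. With both genotypes required above background, SRO3 and SRO4 gave no value. Leaving out 1 replicate gave 0.02 to 0.06 for RCD1, 0.19 to 0.20 for SRO1, 0.45 to 0.90 for SRO2, 0.22 to 0.62 for SRO3, 0.24 to 0.31 for SRO4 and 3.60 to 3.91 for SRO5.

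Counts called higher with outlier backgrounds kept were 1141 over all loci, 1 in the family, 1 for proline, 2 for proteins that bind RCD1 and 0 for DREB2A-induced genes. With median centring they were 591, 1, 0, 2 and 0, and 0 for oxidant scavenging. Counts called lower were 1918 and 674 over all loci, 0 and 0 for proteins that bind RCD1, and with median centring 2 for DREB2A-induced genes and 1 for oxidant scavenging. The series table gave 6369 lower over all loci, 3 higher and 1 lower for proline, 3 higher and 2 lower for proteins that bind RCD1, 2 lower for salt tolerance and 1 lower for TAF4 proteins. Feature Extraction's ratio gave 0 lower for proteins that bind RCD1, and the dye term 1 higher for salt tolerance. Leaving out 1 replicate gave 2320 to 3897 higher and 2491 to 4305 lower over all loci, 2 to 3 higher in the family, 3 to 4 for proline, 4 to 6 higher and 0 to 1 lower for proteins that bind RCD1, 0 to 1 higher for DREB2A-induced genes, 0 to 1 in each direction for salt tolerance and 0 to 1 lower for TAF4 proteins.

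Of 557 values of 43 other named genes under 13 settings, 512 stayed on their side of the threshold in the same direction, 37 lost and 2 gained a call, and 6 changed sign. The sign changes were those of BBX24 without replicate 2 (-0.243 to 0.0626 over the replicates left out), HSFA3 without replicate 1 (-0.163 to 0.0542) and AT5G43130, TAF4 in RefSeq, with the series table (-0.10), outlier backgrounds kept (-0.0023), median centring (-0.10) and without replicate 2 (-0.0597 to 0.0802 over the replicates left out), none of them called. Median centring ended the calls of ANAC016, ANAC017, RAP2.4A, CAT3, FSD1, TAPX, ERD10, RD29B, NUDX7, P5CS2, P5CR, OAT, P5CDH, PRODH1 and IBH1, and outlier backgrounds kept those of ANAC016, ANAC017, RAP2.4A, RD29B, P5CR, OAT, P5CDH and PRODH1. The cause of these shifts was not tested. The within-array ratios tested already pair the genotypes by replicate. No paired analysis was possible besides this one, because each replicate gives 1 ratio and leaves no replicate term to add. Signal over background limits SRO3 and SRO4.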

Other observations

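Genes next to the members on the chromosome (the 2 nearest protein-coding genes on each side in the TAIR10.1 order) were read as a description chosen after seeing the data. Of 24 such neighbours 19 were tested, with 3 called higher, 4 lower and 12 not called, and a median log2 ratio of -0.03. Over all tested loci 18.6% were called higher and 19.9% lower, and nothing particular to the neighbours is read from their counts. Around SRO5, EB1B on one side stood at -0.25 ± 0.09 and UBC3, beyond P5CDH on the other, at -0.07 ± 0.11, both not called. The highest neighbour was BNQ3 beside SRO4, at 1.35, 0.90 and 1.01 on the arrays (mean 1.09 ± 0.10, adjusted p = 0.000456), and ABCA2, which overlaps SRO4 on the other side, stood at 0.53 ± 0.08. BNQ3 encodes an atypical helix-loop-helix protein. The neighbour with the lowest ratio was AT1G32220 near RCD1, at -0.57 ± 0.08. AT1G23560, which overlaps SRO2 in that annotation, stood at -0.29 ± 0.09 and was called lower, against 0.67 for SRO2.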
